A study of Mus musculus with 18 samples.

Results

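The 8 mouse genes described here, Slc15a2, Lncenc1, Aass, Fbp2, Tlr2, Prmt8, Atrnl1 and Aire, lie on autosomes and differed in mean signal between wild-type embryonic stem (ES) cells and cells lacking Cyp26a1. They were chosen by name from earlier results of these data, in which their knockout minus wild-type difference was among the widest of the autosomal genes. They are 8 of the 18194 genes on the array and are read by 11 of its 45101 probe sets, groups of short oligonucleotides that each read 1 transcript. Since the genotype difference chose them, it is given below as a description with no test. Their responses to retinoic acid (RA) and to withdrawal of leukemia inhibitory factor (LIF), and the genotype differences of the genes around them and in their pathways, were tested.

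All 18 arrays held total RNA of AB1 ES cells, an established mouse line, either wild type or Cyp26a1-/-. For each genotype there were 3 arrays of untreated controls at 8 h, 3 of cells given 100 nM RA for 8 h and 2 of cells given 100 nM RA for 72 h, all with LIF, plus 1 array of control cells kept without LIF for 8 h. With no control at 72 h among these samples, RA and time in culture cannot be told apart at 72 h. The sources used here do not say how Cyp26a1 was disrupted, how many knockout clones were used, or whether repeats were separate cultures, so the p-values cover the spread among these arrays only, and that spread may be technical.

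RA enters the nucleus and acts through receptors of the RAR and RXR families, which bind paired copies of the hexamer AGGTCA. CYP26A1 is a cytochrome P450 enzyme that oxidises RA and is itself induced by it, so cells without the enzyme clear RA more slowly. LIF keeps mouse ES cells undifferentiated through STAT3. The 8 genes have unrelated textbook roles. Slc15a2 encodes PEPT2, a proton-coupled importer of di- and tripeptides. Lncenc1 is a long noncoding RNA of naive ES cells, Aass encodes the mitochondrial enzyme that begins lysine degradation, and Fbp2 the muscle form of fructose bisphosphatase, which runs against glycolysis. Tlr2 encodes a receptor for bacterial lipoproteins that signals through Myd88 to NF-kB, Prmt8 a membrane-anchored arginine methyltransferase known from brain, Atrnl1 an attractin-like membrane protein, and Aire a regulator that lets thymic epithelium transcribe genes of other tissues.

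Signal is a linear intensity in units that put the trimmed mean of every array at 500. On each array 39.9% to 45.3% of all probe sets reached 100 units, and values under 50 were set to 50 before log2 was taken. All 12 ES cell markers reached 100 units in each of the 8 groups, so the labelled cell type was borne out, though not at the same level throughout. By limma (adjusted p under 0.05), 6 fell over 72 h of RA in wild type, where 8.64% of all genes did. In the knockout 5 fell (8.26%), and none rose in either genotype. Between the genotypes, 1 was higher in the knockout in control (1.83% of all genes were) and 2 at 72 h (1.39%), and none was lower. Cyp26a1 itself read 9.81 to 52.6 units on the 3 arrays labelled knockout control and 17.5 to 84.2 units on the wild-type controls. After 8 h of RA it read 193 to 216 units on the arrays labelled knockout and 637 to 1695 in wild type, with no overlap. After 72 h of RA it read 2873 and 3075 units on the arrays labelled knockout against 3402 and 3211 in wild type. Where its probes lie relative to the disrupted part is not known here, so these readings do not check the knockout label, and directions below rest on the labels. Socs3, a LIF-induced gene, read 367 and 215 units on the control arrays labelled with LIF that are numbered replicate 1 here. Their titles give no number. It read 3800 and 4551 units on the arrays labelled without LIF. Exchanging these labels changed no call of the 8 genes. Wild-type replicate 3, in control and after 8 h of RA, stood apart from the other 2 wild-type arrays in Lncenc1, Aass and Fbp2, and values without it are given where it decides a result.

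The promoters of 4 of the genes, picked after their values were seen, are shown so that the sequence ahead of each start can be read beside its values. They are those of Lncenc1, with the widest genotype difference, Aass, with the widest change over 72 h of RA in wild type, and Fbp2 and Tlr2, which rose over 72 h in both genotypes. They are from RefSeq (GRCm38.p6), where all 8 genes had a record, cover the 250 bases before the annotated start, and are written 5′ to 3′ on the strand of the gene. The windows are chr13:97434720-97434969 (plus strand) for Lncenc1, chr6:23132987-23133236 (minus strand) for Aass, chr13:62858401-62858650 (minus strand) for Fbp2 and chr3:83841609-83841858 (minus strand) for Tlr2. Capitals mark every match, on either strand, to the 9 motifs searched.
Lncenc1: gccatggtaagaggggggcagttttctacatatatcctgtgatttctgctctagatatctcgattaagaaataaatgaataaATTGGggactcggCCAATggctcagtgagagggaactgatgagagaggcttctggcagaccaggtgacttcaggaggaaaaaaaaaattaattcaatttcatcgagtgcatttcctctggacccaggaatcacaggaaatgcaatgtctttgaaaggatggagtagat
Aass: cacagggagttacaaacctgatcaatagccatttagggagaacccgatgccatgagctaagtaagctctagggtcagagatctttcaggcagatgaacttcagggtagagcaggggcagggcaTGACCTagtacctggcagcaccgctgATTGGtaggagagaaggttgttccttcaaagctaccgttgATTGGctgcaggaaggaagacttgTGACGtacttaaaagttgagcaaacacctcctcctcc
Fbp2: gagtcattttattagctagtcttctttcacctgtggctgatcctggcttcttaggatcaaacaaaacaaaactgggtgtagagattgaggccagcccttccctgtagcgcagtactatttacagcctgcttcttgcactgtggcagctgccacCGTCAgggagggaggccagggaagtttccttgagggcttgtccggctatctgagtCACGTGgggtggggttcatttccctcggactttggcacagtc
Tlr2: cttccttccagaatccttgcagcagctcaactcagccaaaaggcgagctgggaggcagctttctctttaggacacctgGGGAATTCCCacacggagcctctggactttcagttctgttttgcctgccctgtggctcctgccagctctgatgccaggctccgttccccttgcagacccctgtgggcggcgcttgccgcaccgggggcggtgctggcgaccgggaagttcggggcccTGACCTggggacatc
The NF-kB palindrome, the run of 10 capitals in the Tlr2 promoter, lay 172 to 163 bases ahead of the start, and 0.0335% of the 32851 promoters of the same length held it (11 promoters). The E-box CACGTG was in the Fbp2 promoter and in 6.02% of all promoters. AGGTCA, the receptor hexamer, was found in reverse orientation in Aass, 127 to 122 bases ahead of the start, and in Tlr2, 15 to 10 bases ahead, as in 14% of all promoters. Pairs of it in the same orientation with 5 or with 2 bases between matched none of the 8 windows and 0.00913% of all promoters each. TGACG was found in Slc15a2, Aass, Fbp2 and Prmt8 (17.8% of all promoters), and CCAAT in Lncenc1, Aass and Aire (33.8%), with a pair of matches each in Lncenc1 and Aass. TATAAA was in the Aire window, 29 to 24 bases ahead of the start (12.4%), and the octamer ATTTGCAT was in none of the 8 (1.6%). A match is a string of letters, not a known binding site. The Prmt8 and Atrnl1 windows were rich in G and C (82% and 76.4%) against a median of 52.4% over all promoters, while Lncenc1 had 42.4%.

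Of the 8 genes, 4 were lower and 4 higher in the cells labelled knockout, and 7 had arrays that did not overlap between the genotypes in control, after 8 h of RA and after 72 h. Over all 11388 genes tested, 823, or 7.23%, kept the genotypes apart in that way in the same direction, and 19.1%, 20.1% and 48.3% did so in control, at 8 h and at 72 h taken singly. The 8 genes were chosen for this pattern, so nothing is read from their count. Aire was the exception and overlapped in control and after 72 h of RA. Arrays that do not overlap do not show that a difference was steady, least of all with 2 against 2 at 72 h. There the differences of Aass (-0.96 ± 0.81, a bound), Fbp2 (-0.93 ± 0.47) and Atrnl1 (0.65 ± 0.35) were also within 2 standard errors of 0. Ranked by the mean of the 3 differences among 10983 autosomal genes tested, Lncenc1 was the lowest of all, with Slc15a2, Aass and Fbp2 at places 4, 5 and 13 from the bottom. Tlr2, Prmt8, Aire and Atrnl1 stood at places 4, 6, 10 and 14 from the top. By condition, the differences of Slc15a2, Lncenc1, Tlr2 and Prmt8 were over 1 log2 unit in size at 72 h. Those of Fbp2, Atrnl1 and Aire were smaller there than at 8 h. For Aass both knockout arrays lay under the floor at 72 h, so its size there cannot be compared with that at 8 h.

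**Figure D1:**
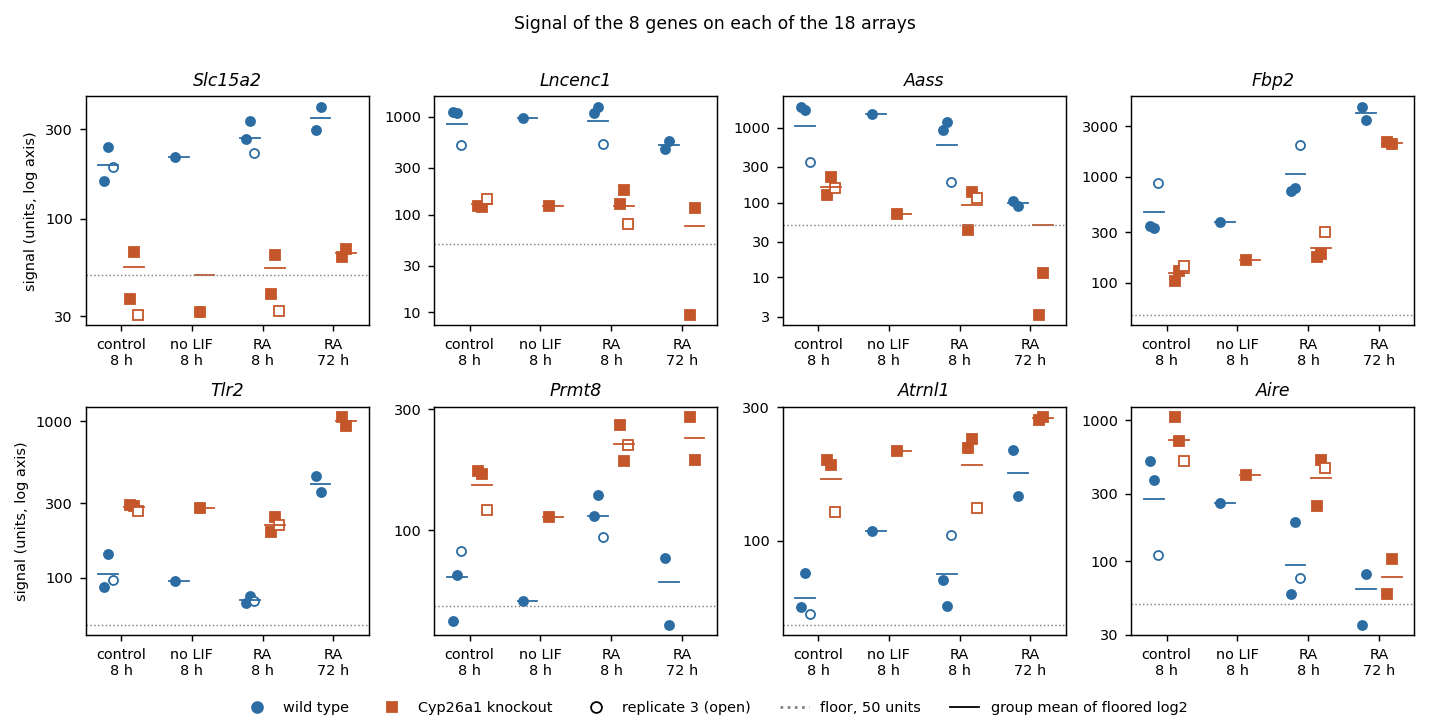
Signal of each of the 8 genes (units, logarithmic axis) on the 18 arrays, by condition, with wild-type arrays as blue circles and arrays labelled knockout as orange squares. Open symbols are replicate 3, short lines are group means of log2 signal after the floor of 50 units (dotted). Lncenc1 read 466 to 1263 units on every wild-type array and at most 176 units on every knockout array, and Aire is the gene in which the genotypes overlapped.

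Among the 4 genes that were lower, Slc15a2 was near the floor in the knockout throughout. Its brightest probe set read 159.6, 241 and 189.6 units on the wild-type control arrays and 37.3, 65.8 and 30.6 units on the knockout control arrays. After 8 h of RA the readings were 266, 334 and 224 in wild type against 39.5, 64.1 and 31.9 in the knockout, and after 72 h 298 and 396 against 62.2 and 68.3. Every wild-type array lay above every knockout array, and no knockout array reached 100 units. The log2 difference, knockout minus wild type, was -1.82 ± 0.23 in control (standard error, 3 arrays against 3), -2.32 ± 0.23 after 8 h of RA and -2.40 ± 0.28 after 72 h (2 against 2), and the control and 8 h values understate the change, since 2 of the 3 knockout arrays in each lay under the floor. With a floor of 100 units the control difference was -0.96. The peptide transporter has 2 further probe sets that did not show the difference: 1 never reached 100 units, and the other read 64 to 82.8 units on the wild-type controls and 36.3 to 139 units on the knockout controls, which overlapped. With the mean of the 3 probe sets in place of the brightest, the differences were -0.54, -0.76 and -0.99.

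The noncoding RNA Lncenc1 had the widest difference of the 8. It read 1115, 1084 and 509 units on the wild-type control arrays and 123, 119.8 and 143 units on the knockout controls. With 8 h of RA the values were 1081, 1263 and 523 in wild type and 127, 176 and 79.8 in the knockout. With 72 h of RA they were 466 and 567 in wild type and 9.49 and 116 in the knockout. The lowest wild-type arrays in control and at 8 h were replicate 3, about level with the 72 h arrays, and still well above each knockout array. The log2 differences were -2.73 ± 0.40, -2.88 ± 0.40 and -2.76 ± 0.49, the most even size over the conditions among the 4 lower genes. At 72 h 1 of the 2 knockout arrays lay under the floor, so that value understates the change and the evenness is limited by the floor. Without wild-type replicate 3 they were -3.10 in control and -3.27 after 8 h of RA.

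Aass, which starts lysine breakdown, was lower in the knockout, and in wild type its readings were lowest at 72 h of RA. Control readings were 1907, 1719 and 349.9 units in wild type and 125, 220.3 and 156 in the knockout. After 8 h of RA they were 939.8, 1179 and 191 in wild type and 43.3, 139 and 115 in the knockout. After 72 h they were 106 and 88.9 in wild type and 3.17 and 11.5 in the knockout. The genotypes did not overlap in any condition, but wild-type replicate 3 lay nearer to the knockout than to the other wild-type arrays at both 8 h conditions. The log2 differences were -2.68 ± 0.66 and -2.68 ± 0.66 at 8 h, and -3.48 and -3.50 without wild-type replicate 3. At 72 h both knockout arrays lay under the floor, so the difference of -0.96 ± 0.81 is a bound set by the floor, a level at least 1.94-fold lower. It was -0.04 with a floor of 100 units, where 1 wild-type array also lay under the floor, -0.74 with quantile normalization and -1.73 for log2 of signal plus 32.

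Fbp2, the fructose bisphosphatase, was lower in the knockout at each time, and its readings were highest at 72 h in both genotypes. On control arrays it read 342, 331 and 872 units in wild type and 104, 128 and 143 in the knockout. With RA for 8 h it read 742, 787 and 2006 in wild type and 174, 187 and 302 in the knockout. With RA for 72 h it read 4585 and 3461 in wild type and 2139 and 2036 in the knockout. Here wild-type replicate 3 was the highest of its group rather than the lowest. Its log2 differences were -1.90 ± 0.39, -2.30 ± 0.39 and -0.93 ± 0.47, and without wild-type replicate 3 -1.44 in control and -1.83 after 8 h of RA.

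Among the 4 genes that were higher, Tlr2, the lipoprotein receptor, had the tightest replicates. It read 87.9, 142 and 96.2 units on wild-type control arrays and 290.3, 289 and 266 on knockout control arrays. The 8 h RA arrays read 68.5, 76.3 and 71.0 in wild type and 197, 245 and 217 in the knockout. The 72 h RA arrays read 449 and 355 in wild type and 1064 and 938 in the knockout. The genotypes were apart in each condition, and the knockout controls lay under the wild-type 72 h arrays. On the log2 scale the differences were 1.41 ± 0.19, 1.61 ± 0.19 and 1.32 ± 0.24, much the same size at each time.

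Prmt8, the arginine methyltransferase, was close to the floor in wild-type control cells. It read 43.6, 66.3 and 83.0 units there and 172, 166 and 120.0 on knockout control arrays. Its readings at 8 h of RA were 114, 137 and 94.1 in wild type and 259, 187 and 216 in the knockout. At 72 h they were 77.6 and 42.2 in wild type and 279 and 189 in the knockout. Wild-type cells were highest at 8 h and back near the floor at 72 h, whereas knockout cells stayed up. Differences on the log2 scale were 1.21 ± 0.27, 0.94 ± 0.27 and 1.88 ± 0.33, and with a floor of 100 units the control value was 0.59.

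Atrnl1, the attractin-like gene, was likewise dim in wild-type control cells. Its brighter probe set read 57.9, 76.9 and 54.6 units there and 195, 187 and 127 on knockout controls. After 8 h of RA it read 72.6, 58.4 and 105 in wild type and 215, 232 and 131 in the knockout. After 72 h it read 211 and 145 in wild type and 271 and 277 in the knockout. The gap was narrowest at 72 h, where the wild-type readings were at their highest. The log2 differences were 1.42 ± 0.28, 1.29 ± 0.28 and 0.65 ± 0.35, and with a floor of 100 units the control value was 0.74. The other Atrnl1 probe set was under the floor on all 18 arrays. Atrnl1 lies on chromosome 19, where the median difference over 413 other tested genes was 0.47, 0.48 and 0.48, so it exceeded its chromosome by 0.95, 0.81 and 0.17. Chromosomes 3, 6, 10, 13 and 16, which hold the other 7 genes, had medians between -0.055 and 0.01.

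Aire, the thymic regulator, varied most between replicates of the higher genes. It read 515, 374 and 109.8 units on wild-type control arrays and 1053, 706 and 515 on knockout control arrays. RA for 8 h gave 58.0, 189 and 76.0 in wild type and 245, 523 and 454 in the knockout. RA for 72 h gave 35.3 and 81.6 in wild type and 58.2 and 104 in the knockout. Replicate 1 of the wild-type control matched replicate 3 of the knockout control, the arrays separated at 8 h of RA, and at 72 h both genotypes were low and overlapped. The log2 differences were 1.39 ± 0.54, 2.04 ± 0.54 and 0.28 ± 0.66. Without wild-type replicate 3 the control difference was 0.73, and at 72 h the sign turned to -0.07 without wild-type replicate 1 and to -0.14 without knockout replicate 2.

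On the single arrays without LIF the genotypes stood in the same order for all 8 genes. The readings, wild type first, were 214 and 31.4 units for Slc15a2, 976 and 121 for Lncenc1, 1516 and 70.6 for Aass, and 372 and 164 for Fbp2. Those of the higher genes were 94.9 and 281 for Tlr2, 52.5 and 112 for Prmt8, 108 and 209 for Atrnl1, and 258 and 410 for Aire. These are 1 array against 1, with no replicate check, and the largest ratio was the 21.5-fold lower Aass.

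**Figure D2:**
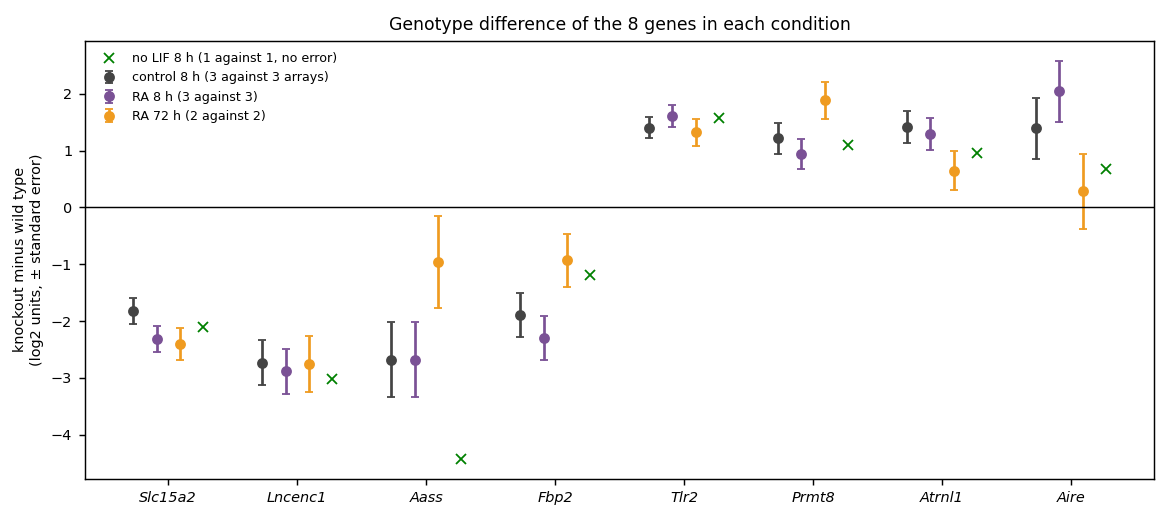
Knockout minus wild-type difference of the 8 genes (log2 units) in control, after RA for 8 h and 72 h (circles, bars are standard errors from limma) and without LIF (crosses, 1 array against 1). The 4 genes on the left lie below 0 and the 4 on the right above 0 in each condition, with Fbp2, Atrnl1 and Aire nearer to 0 at 72 h. The Aass value at 72 h is a bound, since both knockout arrays were under the floor.

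Treatment with RA for 8 h called none of the 8 genes in either genotype by limma at an adjusted p of 0.05. Over all genes tested, 103, or 0.904%, were called in wild type and 109, or 0.957%, in the knockout, and 895 and 986 had an unadjusted p under 0.05. In wild type the widest changes were those of Aire (-1.56 ± 0.54, adjusted p 0.326), Fbp2 (1.19 ± 0.39, 0.268), Aass (-0.81 ± 0.66, 0.937) and Prmt8 (0.81 ± 0.27, 0.281). Fbp2 was called with replicate 3 as a block (adjusted p 0.00749), where replicate 3 went from 872 to 2006 units and the other wild-type arrays from 331 and 342 to 742 and 787. Without control replicate 3 the changes of Fbp2 (1.65, adjusted p 0.0358) and Aire (-2.22, 0.0371) were called, and without replicate 3 of both conditions none was. Arrays did not overlap for Tlr2, which was lower with RA, and Prmt8, which was higher, in both genotypes, and for Fbp2 in the knockout, where 10.2% of all genes in wild type and 12.5% in the knockout did not overlap. Knockout changes were -0.37 ± 0.19 for Tlr2, 0.54 ± 0.27 for Prmt8 and 0.79 ± 0.39 for Fbp2, with adjusted p values of 0.661, 0.617 and 0.608.

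After 72 h of RA the enzyme Fbp2 and the receptor Tlr2 rose and the regulator Aire fell in both genotypes. In wild type 6 of the 8 genes were called against the 8 h control, where 24.7% of all genes were, and in the knockout 3 of 8, where 23.0% were. Fbp2 rose by 3.11 ± 0.43 log2 units in wild type (8.63-fold, limma adjusted p 1e-04) and by 4.07 ± 0.43 in the knockout (16.8-fold, 9.42e-06). Tlr2 rose by 1.91 ± 0.21 in wild type (adjusted p 1.48e-05) and 1.83 ± 0.21 in the knockout (2.59e-05). Aire changed by -2.11 ± 0.60 in wild type (adjusted p 0.0184) and -3.23 ± 0.60 in the knockout (0.00132). These 3 genes thus moved the same way in the 2 genotypes, from different control levels, and each 72 h array of them lay outside the range of its controls, as it did for 49.6% of all genes in wild type and 51.9% in the knockout.

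The lysine enzyme Aass fell in wild type by 3.43 log2 units (standard error 0.74, adjusted p 0.00337). In the knockout both 72 h arrays were under the floor, and the bound of -1.70 ± 0.74 was not called (adjusted p 0.114). It was called there with replicate 3 as a block (-2.08, adjusted p 0.0243), on the scale of log2 of signal plus 32 (-2.32, 0.0212) and with the compared groups alone in the fit (0.008). Atrnl1 rose in wild type by 1.49 ± 0.32 (adjusted p 0.00309) and changed by 0.72 ± 0.32 in the knockout (0.12). Slc15a2 rose in wild type by 0.82 ± 0.26 (adjusted p 0.0277) and changed by 0.25 ± 0.26 in the knockout (0.538). The floor limits that knockout value, since 2 of the 3 knockout control arrays lay under it. Knockout readings were 37.3, 65.8 and 30.6 units in control and 62.2 and 68.3 at 72 h, so the missing call does not set the genotypes apart. The wild-type call of Slc15a2 was lost under 9 of the alternatives, among them the mean of its probe sets (0.34, adjusted p 0.331). Wild-type Aire lost its call under 6 of the alternatives, with adjusted p values from 0.0556 to 0.152, the last without 72 h replicate 1 (-1.76). That replicate also decided wild-type Atrnl1, which without it was 1.22 with an adjusted p of 0.0601.

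Lncenc1 and Prmt8 were not called at 72 h in either genotype. Lncenc1 changed by -0.73 ± 0.45 in wild type (limma adjusted p 0.261) and -0.75 ± 0.45 in the knockout (0.253). The knockout change is limited by the floor, since 1 of the 2 arrays at 72 h lay under it. In wild type the 2 arrays at 72 h lay at the level of replicate 3 of the control, and without wild-type replicate 3 the change was -1.10 with an adjusted p of 0.05. Prmt8 changed by -0.06 ± 0.30 in wild type (0.908) and 0.61 ± 0.30 in the knockout (0.162), and with a floor of 100 units the knockout changes of Prmt8 and Atrnl1 were called (adjusted p 0.0439 and 0.0442).

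Between 8 h and 72 h of RA, 5 of the 8 genes were called in wild type (22.3% of all genes) and 3 in the knockout (19.2%). Tlr2 rose by 2.48 ± 0.21 in wild type (adjusted p 2.03e-06) and 2.19 ± 0.21 in the knockout (1.02e-05). Fbp2 rose by 1.92 ± 0.43 (0.00504) and 3.28 ± 0.43 (0.000107), respectively. Tlr2 thus rose after 8 h from arrays that lay under their controls without a call, and Fbp2 from arrays that in the knockout already lay above them. Wild-type Aass (-2.62 ± 0.74, adjusted p 0.0191) and Prmt8 (-0.87 ± 0.30, 0.0474) fell, and wild-type Atrnl1 rose (1.20 ± 0.32, 0.013). Knockout Aire fell by 2.32 (0.0142), a call lost with no filter on dim genes (adjusted p 0.0622) and without 72 h replicate 1 (-1.90, 0.146). Lncenc1 in wild type was called with replicate 3 as a block (-1.04, limma adjusted p 0.0443) and without replicate 3 of both control and RA 8 h (-1.19, 0.0398). It was not called with all arrays and no block (-0.80 ± 0.45, 0.222). Prmt8 lost its call under 8 of the alternatives and Aass under 5. Without 72 h replicate 1, 2 genes were called in wild type. The comparisons with the control and with 8 h share the 72 h arrays.

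**Figure D3:**
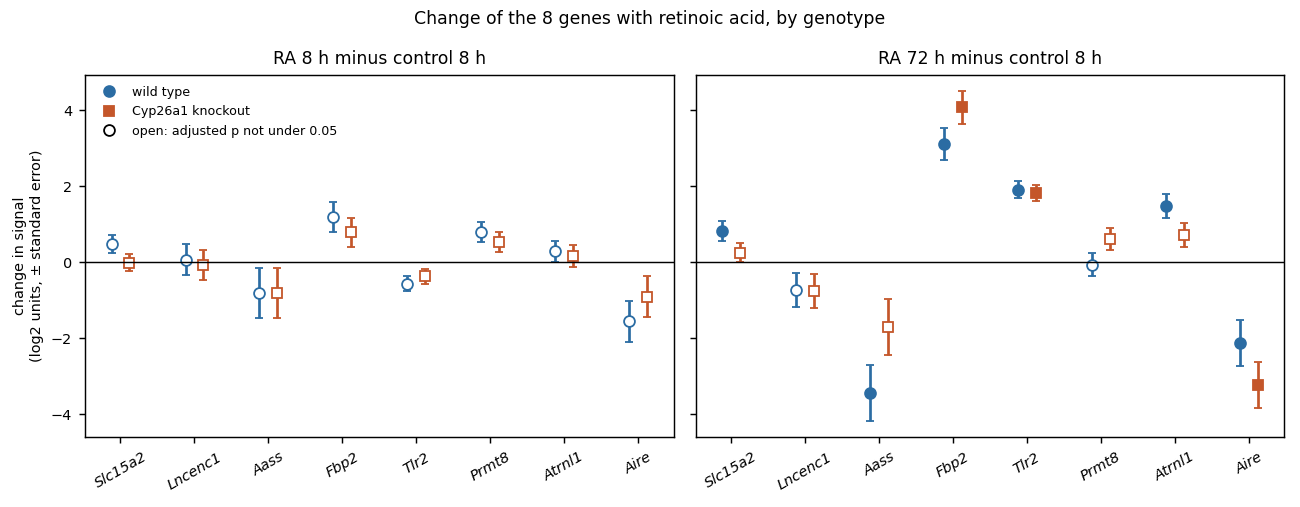
Change of the 8 genes (log2 units) from control to RA at 8 h (left) and at 72 h (right), wild type as blue circles and knockout as orange squares. Bars are standard errors, and filled symbols passed an adjusted p of 0.05 in limma. No symbol is filled at 8 h, 6 wild-type and 3 knockout symbols are filled at 72 h, and the knockout value of Aass at 72 h is a bound.

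The genotype difference that chose the genes enters each difference of responses, so those are given without a test. Over 72 h the knockout response minus the wild-type response was 1.73 ± 1.05 for Aass, which the floor limits, 0.96 ± 0.61 for Fbp2 and 0.67 ± 0.42 for Prmt8. It was -1.11 ± 0.85 for Aire, -0.77 ± 0.45 for Atrnl1 and -0.57 ± 0.36 for Slc15a2. Lncenc1 and Tlr2 had values of -0.03 ± 0.63 and -0.08 ± 0.30. The floor also limits the values of Slc15a2, Lncenc1, Prmt8 and Aire, since each had 1 or more arrays under it in the groups compared. Over 8 h the 8 values ran from -0.50 for Slc15a2 to 0.65 for Aire, each with a standard error of at least 0.27. No value was more than 2 standard errors from 0, which does not show that the responses were equal.

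Withdrawal of LIF for 8 h, tested with the genotype as a term over 8 arrays, called none of the 8 genes and 0% of 10476 genes by limma, of which 285 had an unadjusted p under 0.05. The widest changes were those of Atrnl1 (0.56 ± 0.28), Aire (-0.46 ± 0.50), Prmt8 (-0.37 ± 0.30) and Aass (-0.34 ± 0.61). Slc15a2, Lncenc1, Fbp2 and Tlr2 changed by at most 0.08 in size. All 8 adjusted p values were 0.999. With 1 array per genotype without LIF, and with Socs3 against the LIF labels of replicate 1, these values say little about LIF.

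Genes beside the 8 on their chromosomes were called between the genotypes about as often as all genes, or somewhat more often. Of the 80 nearest tested genes, 5 on each side of each gene, 4 were called between the genotypes in control, where 4.64% of all genes were, 6 after 8 h of RA (4.61%) and 5 after 72 h (4.07%). They were 7 genes in all, and 3 of these, Ccdc186, Fam160b1 and Trub1, lie beside Atrnl1 on chromosome 19 and were higher in each condition. Trub1, a tRNA pseudouridine synthase gene directly next to Atrnl1, read 989 to 1103 units on the wild-type control arrays and 1576 to 1732 on the knockout control arrays. Its differences were 0.65 ± 0.12, 0.80 ± 0.12 and 0.82 ± 0.14 (limma adjusted p 0.00592, 0.00146 and 0.00409), against the chromosome medians given above.

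Ildr1, an immunoglobulin-like receptor gene directly next to Slc15a2 on chromosome 16, was lower in the knockout by a similar amount to Slc15a2. It read 416, 429 and 1037 units in wild-type control cells and 159, 147 and 208 in knockout control cells. After 72 h of RA it read 205 and 133 in wild type and 38.0 and 12.6 in the knockout. The arrays did not overlap, and wild-type control replicate 3 was the highest. The differences were -1.75 ± 0.35, -1.90 ± 0.35 and -1.72 ± 0.43 (limma adjusted p 0.01, 0.00657 and 0.0335). At 72 h the call was lost with a floor of 100 units, quantile normalization, no filter on dim genes, or any 72 h array left out (adjusted p 0.0633 to 0.452), and both knockout arrays there lay under the floor. Unlike Slc15a2, Ildr1 fell over 72 h of RA in both genotypes (-1.79 ± 0.39 in wild type, adjusted p 0.00374, and -1.76 ± 0.39 in the knockout, 0.00449). Of the other 9 neighbours of Slc15a2, Gtf2e1 was called after 8 h of RA (-0.62, adjusted p 0.0439).

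Fbp1, the liver fructose bisphosphatase gene, lies directly next to Fbp2 on chromosome 13. It read 109.7, 114 and 97.2 units in wild-type control cells and 41.3, 92.3 and 38.7 in knockout control cells, and its differences of -0.80, -0.84 and -0.55 were not called (adjusted p 0.34, 0.301 and 0.668). Like Fbp2, it rose over 72 h of RA, by 1.70 ± 0.44 in wild type (adjusted p 0.0109) and 1.95 ± 0.44 in the knockout (0.00504), and the wild-type call was lost without 72 h replicate 1 (1.13, 0.179). Next to it Aopep was higher in the knockout after 8 h of RA (0.55, 0.0372). Near Lncenc1, Fam169a was higher after 72 h (1.25, 0.00209), while Enc1, the gene directly beside it, was not called in any condition (-0.26, -0.31 and 0.38, adjusted p 0.243 to 0.363) and read 3748 to 6304 units on all 18 arrays. Dnmt3l, directly beside Aire, was not called either (0.16, 0.10 and -0.13, adjusted p 0.758 to 0.865). It fell over 72 h of RA, as Aire did, by 1.63 log2 units in wild type (adjusted p 2.68e-05) and 1.93 in the knockout (6.4e-06). None of the 10 neighbours of each of Aass, Tlr2, Prmt8 and Aire was called.

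**Figure D4:**
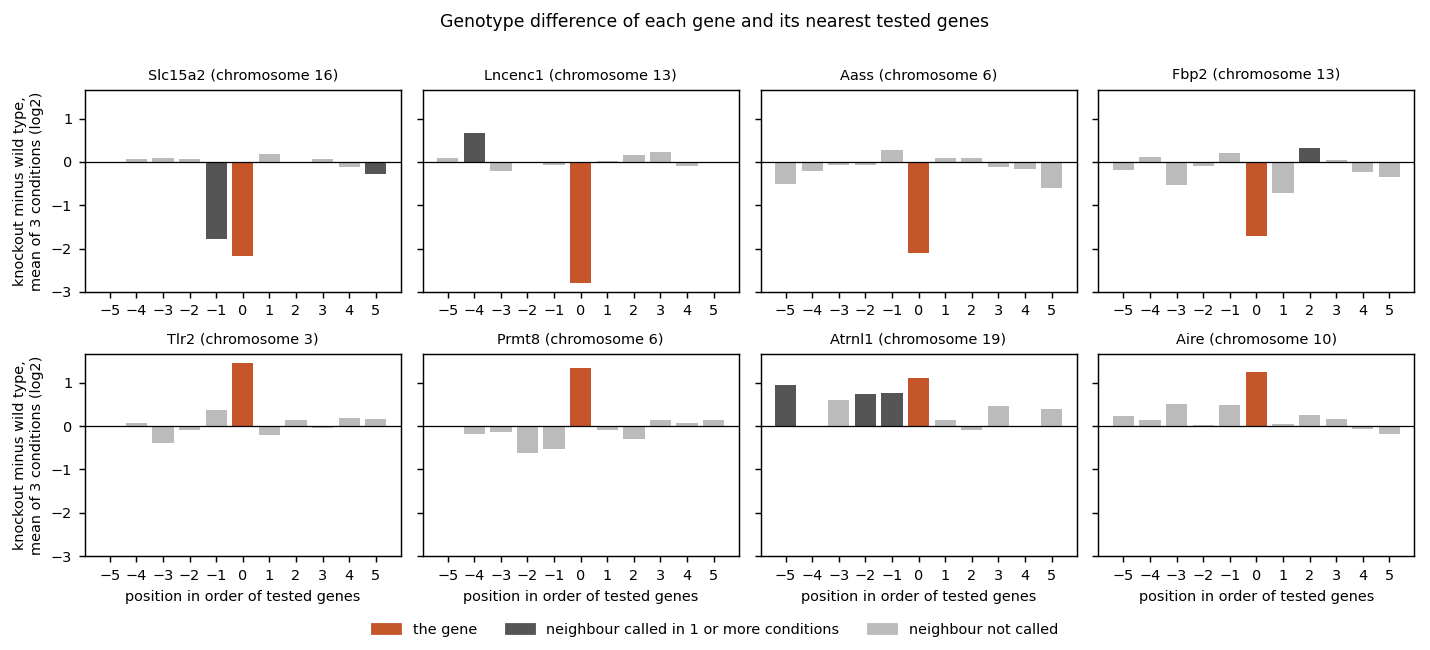
Genotype difference (knockout minus wild type, mean of control, RA 8 h and RA 72 h, log2 units) of each of the 8 genes (orange, position 0) and of the 5 nearest tested genes on either side in chromosome order (grey). Dark bars are neighbours called in 1 or more conditions, which are Ildr1 and Gtf2e1 beside Slc15a2, Fam169a near Lncenc1, Aopep near Fbp2 and 3 genes near Atrnl1.

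Calls between the genotypes among genes of related function were unevenly spread over the lists, and glycolysis had the most. Between the genotypes none of the 13 other lysine degradation genes tested, 12 genes of Toll-like receptor signalling, 2 other oligopeptide transporters, 2 genes of the attractin and melanocortin list and 9 genes of the Aire and SAND domain list was called in any condition. The medians of these lists lay between -0.22 and 0.30, beside a median within 0.01 of 0 over all genes. Among 9 other genes of arginine methylation, Prmt9, a further methyltransferase, on chromosome 8, was lower in control (-0.89 ± 0.14, limma adjusted p 0.00269) and after 8 h of RA (-0.70 ± 0.14, 0.0114). Among 11 other genes of gluconeogenesis and fructose phosphates, Pfkp, a phosphofructokinase, was higher in control (0.55 ± 0.11, 0.0104).

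The glycolytic genes, whose pathway Fbp2 opposes, were the list with the most calls, all of them higher in the knockout. Of 11 tested, 2 were higher in control (1.83% of all genes were), 2 after 8 h of RA (1.70%) and 4 after 72 h (1.39%), with none lower, and the list medians were 0.28, 0.17 and 0.55. Tpi1, triosephosphate isomerase, read 5286, 4281 and 2972 units on wild-type controls and 9978, 8282 and 6877 on knockout controls. Its differences were 1.03 ± 0.20, 1.02 ± 0.20 and 1.30 ± 0.24 (adjusted p 0.00804, 0.00849 and 0.00567). Pgam1, a phosphoglycerate mutase gene on chromosome 19, differed by 0.44, 0.41 and 0.77 (0.0137, 0.0187 and 0.00123), the first 2 being below the median of that chromosome. Ldha, lactate dehydrogenase A (0.74 ± 0.12, 0.00201), and Pkm, pyruvate kinase (0.55 ± 0.12, 0.0144), were called at 72 h. The control call of Tpi1 was lost with the compared groups alone in the fit (adjusted p 0.0556). Its 72 h call was lost without wild-type replicate 1 or knockout replicate 2 (adjusted p 0.0832 and 0.0629), and the 8 h calls of Pgam1 were lost under 4 alternatives in control and 5 with RA. Of 13 other noncoding RNAs, 2 were higher in each condition. Gas5 was higher in all 3 (0.29, 0.29 and 0.34, adjusted p 0.0256, 0.0276 and 0.0373), with Snhg1 in control and at 72 h (0.51 and 0.70, 0.0486 and 0.0274) and Malat1 after 8 h of RA (1.20, 0.0193).

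Over 72 h of RA, calls in the Toll-like receptor list were near the share over all genes. In wild type 3 of its 12 tested genes rose and 1 fell, where 16.1% and 8.64% of all genes did, and in the knockout 2 rose, where 14.8% of all genes did. Tirap, an adaptor of Tlr2 signalling, rose by 1.35 ± 0.30 in wild type (limma adjusted p 0.00443) and 1.49 ± 0.30 in the knockout (0.00244), and Cd14, a co-receptor, by 1.24 ± 0.27 (0.00394) and 1.59 ± 0.27 (0.000701). Cd14 remained dim, at 119 to 173 units on the 4 arrays at 72 h. Of the 9 arginine methylation genes, 4 fell and 1 rose in both genotypes (8.26% of all genes fell in the knockout), with Prmt3 changing by -0.79 in wild type (7.01e-05) and -0.84 in the knockout (4.94e-05). Of the 13 lysine degradation genes, 2 rose and 1 fell in wild type and 3 rose in the knockout, and Acat1, a thiolase, rose by 0.94 (0.000834) and 1.15 (0.000191) while Aass fell in wild type. The genes named here for RA were chosen after their values were seen.

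Markers of other cells were read beside these results, and in such bulk RNA fewer cells of a type and less RNA per cell cannot be told apart. Of 12 extraembryonic endoderm markers, 11 rose over 72 h of RA in each genotype, as Fbp2 and Tlr2 did. Their summed signal went from 4181 to 10818 units in wild-type controls and 2601 to 4440 in knockout controls to 25567 to 28966 and 21689 to 21855 at 72 h. In control, 5 of the 12 were lower in the knockout (2.81% of all genes were) and none higher, with a list median of -1.06. After 8 h of RA 4 were lower (2.91%; median -1.09), and at 72 h none was called (2.68%; median -0.21). Wild-type replicate 3 was not the highest of its group in that sum, but it was in Gata6 (369 units in control, 853 after 8 h of RA). The part of endoderm-like cells in the differences of the 8 genes was not tested.

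Of 10 markers of myeloid cells, where Tlr2 is best known, Ptprc, Itgam and Tyrobp read at most 44.0, 56.6 and 46.8 units on the 18 arrays. Csf1r read 91.4 to 205 units, and Spi1, Adgre1 and Lyz2 reached at most 124, 102 and 104. The myeloid sum was 994 to 1297 units in wild-type and 1377 to 1767 in knockout controls, most of it Cd68 (higher in the knockout control by 0.83 ± 0.15, limma adjusted p 0.00484). At 72 h, when Tlr2 was highest, it was 734 to 900.5 and 803 to 849. Cd14, on this list too, rose over 72 h in both genotypes (1.24 and 1.59, limma adjusted p 0.00394 and 0.000701), as Tlr2 did. Cd68 fell in both (-1.32 and -2.26, 3.44e-05 and 3.23e-07), and of the 4 markers tested no other was called. Of 8 markers of thymic epithelium, Psmb11 and Fezf2 read at most 51.1 and 36.9 units and Foxn1 read 5.57 to 122, with Krt5 at 17.0 to 142 and Cd80 at 50.4 to 118. Most of the sum there was Epcam, which ES cells express and which was higher in the knockout in control and after 8 h of RA. Fibroblast markers reached 100 units for 1 or 2 of 10 genes in 7 groups and for 5 in wild type at 72 h, where replicate 2 alone read 302 units for Col1a1, 432 for Col1a2 and 253 for Col3a1. Of 8 neuronal markers, Snap25 read at most 23.6 units and Tubb3 read 568 to 1446. Of the 6 tested only Neurod1 was called between the genotypes. It was lower in the knockout in control and after 8 h of RA (-1.31 and -1.29, limma adjusted p 0.0255 and 0.028), where the list medians were -0.035 and -0.146. Stmn2 was lowest on wild-type replicate 3 (890.3 units in control, 779 after 8 h of RA). It read 2520 and 8133 on the other wild-type controls and 4500 to 5685 on the knockout controls. Over 72 h in wild type Syt1 rose (1.04, limma adjusted p 0.0247) and Tubb3 and Neurod1 fell (-0.69 and -1.93, 0.0294 and 0.000906). The part of these cells in the results was not tested.

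The genes whose log2 signal followed each of the 8 most closely over the 18 arrays were taken as the 3 with the highest Pearson correlation, a description that rests on arrays sharing genotype and treatment. Slc15a2 was followed by Ykt6 (0.951), Sh3bgrl (0.944) and Hpf1 (0.939). For Lncenc1 they were Zfp930 (0.954), Ccdc124 (0.951) and Bcap29 (0.949), the first 2 on chromosome 8. Aass had Neurod1 (0.918), 2500002B13Rik (0.911) and Zfp330 (0.905), and Fbp2 had St3gal2 (0.956), Plin2 (0.951) and Rfxap (0.95). Tlr2 was nearest to She (0.959), Xpnpep1 (0.948) and Fbxo30 (0.938), and Prmt8 to Hif1an (0.909), Tmem134 (0.882) and Pcif1 (0.868). All 3 of Atrnl1, namely Fkbp2 (0.903), Scd1 (0.898) and Ak3 (0.884), lie on chromosome 19. Aire was nearest to Grhl2 (0.947), Carnmt1 (0.911) and Nsd1 (0.887). These 2 chromosomes recurred for the other genes too. Xpnpep1, Hif1an, Tmem134 and Carnmt1 lie on chromosome 19, and Hpf1, 2500002B13Rik, Zfp330 and St3gal2 on chromosome 8. Chromosome 19 holds 414 of the 11388 genes tested. Over the whole array, 145 autosomal genes were called between the genotypes in the same direction in control, at 8 h and at 72 h of RA. Of these, 51 lie off chromosomes 8 and 19. The recurrence is therefore not read as particular to the 8 genes.

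Among the 8 themselves the closest pair was Slc15a2 with Lncenc1 (0.891), both lower in the knockout, followed by Tlr2 with Atrnl1 (0.849) and Lncenc1 with Aass (0.834). Fbp2 and Aire ran opposite to each other (-0.911). Fbp2 was lower in the knockout and rose over 72 h of RA, and Aire was higher and fell. Aass and Fbp2, both lower in the knockout, had a correlation of -0.13.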

How the data were processed

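Each of the 18 samples was read on 1 single-colour Affymetrix array. The authors deposited linear signal intensity per probe set, made with MAS5 per the submitters' processing notes, with version and genome build not given in the sources used here. By the platform annotation, 34958 probe sets named 1 gene, 932 named several and 9211 were unlisted. The deposited intensity was rescaled here to a 2% trimmed mean of 500, floored at 50 and taken to log2, and the probe set with the highest mean stood for its gene. A gene was tested where 2 or more arrays reached 100 units.

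Limma 3.58.1 in R 4.3.3 (lmFit, eBayes with trend) fitted the 16 arrays of the 6 replicated groups together, with 10 residual degrees of freedom, and LIF withdrawal in a fit of its own over 8 arrays with 5. The p-values are two-sided, with Benjamini-Hochberg adjustment over all genes tested and calls, rises and falls are those with an adjusted p under 0.05. "±" is the standard error, with a median of 0.19 for 3 arrays against 3 and 0.24 for 2 against 2. The number of arrays limits the precision. The script was tested on simulated data.

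The titles give replicate numbers to some samples. No title names a replicate 1, and arrays without a number in the title were numbered here. Deviations from group means correlated between arrays titled rep3 (0.271 to 0.504 over 6 pairs) and rep2 (0.106 to 0.296 over 6 pairs). The numbers in the titles were therefore taken to pair the samples. The main fit had no block, so its p-values leave this pairing out. Rep3 against the rest served as a block in an alternative fit only. That fit made 154 calls over all genes for RA at 8 h among wild-type arrays, against 103 in the main fit. Among knockout arrays it made 148 against 109. The 8 genes, the pathway and marker lists and the tests were chosen with earlier results of these data known. The genes named are the 8, their 3 most correlated genes, 5 tested neighbours on either side in RefSeq order (GRCm38.p6), and list genes called between the genotypes, up to 4 a list. Others are marked. Alternatives covered the floor, log scale, normalization, filter, samples fitted, probe sets, block, LIF labels and each array left out. Leaving out wild-type replicate 3 of control and of RA 8 h together was chosen after seeing the data.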

Additional observations from a re-analysis of the deposited data

How the results depend on the processing

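The genotype order of the 8 genes held under each alternative run except for Aire at 72 h of RA, where it ranged from -0.135 (without knockout replicate 2) through -0.071 (without wild-type replicate 1) to 0.699 (without knockout replicate 1). The count of genes whose genotypes did not overlap was 7 with each array left out and 6 with a floor of 100 units. With a floor of 100 units, 5 of the 8 genes were called in the knockout at 72 h against 3. With no filter on dim genes 3 were called in wild type from 8 h to 72 h of RA against 5. With replicate 3 as a block, which sets only the arrays titled rep3 apart from the rest, 1 was called in wild type at 8 h against 0. In the pathway lists 29 genotype calls were made against 17. The block also added Aass at 72 h in the knockout and Lncenc1 from 8 h to 72 h in wild type, and changed no other call of the 8 genes. With each array left out in turn, calls in wild type ranged from 0 to 2 at 8 h, from 3 to 5 at 72 h and from 2 to 5 between them. In the knockout they were 0, 3 and 2 to 3. Neighbour calls ranged from 9, without knockout 72 h replicate 2, to 17 against 15, and list calls from 12 to 18. Of the responses of the 8 genes under the alternatives, 770 kept their side of the threshold, among them 44 uncalled values that changed sign, 34 lost a call and 11 gained 1, and the cause was not tested. Exchanging the LIF labels changed no call of the 8. Signals near the floor, as for Slc15a2 and Aass in the knockout, limit what differences can be seen.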
